A study of Mus musculus with 6 samples.

Results

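Gene expression in mouse dendritic cells (DC) that received an adenovirus carrying the IkBa super-repressor and then TNFa was compared with that in DC that received a control adenovirus and then TNFa. The groups are called AdIkBa-SR+TNFa and AdOVA+TNFa, as in the sample titles, and each has 1 Affymetrix MOE430A array. These are 2 of the 6 arrays of the study, and all 22626 non-control probe sets of the array were taken. The other arrays measured AdIkBa-SR without TNFa, AdOVA without TNFa, TNFa without virus, and untreated cells.

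All 6 groups carry the same source label. Per the labels, bone marrow came from a female CAR-transgenic mouse aged 13 weeks, and progenitors were expanded in culture for 7 days and differentiated for 7 days with GM-CSF at 250 U/ml. In the 4 groups with virus it was given at 1500 particles per cell for 2 h, with 18 h of culture after it, and in the 3 groups with TNFa this was then added at 50 ng/ml for 4 h. Labelling started from 8 ug of total RNA. Whether each group had a culture of its own is not given in the labels, and they give no promoter for the transgene of the mouse or for that of either virus. With 1 array a group there was no replicate check, no test was made, and precision is limited by the number of arrays throughout.

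NF-kB is a family of dimeric transcription factors that IkB proteins hold in the cytoplasm. TNFa, and sensors of viral nucleic acid, activate the IkB kinase complex, IkBa is then phosphorylated and broken down, and NF-kB enters the nucleus. The super-repressor form of IkBa cannot be phosphorylated by that kinase and keeps NF-kB bound. In DC, NF-kB target genes include cytokines, chemokines, costimulatory molecules and inhibitors of NF-kB itself, and adenovirus entry also induces interferon, which acts through STAT and IRF factors on a separate set of antiviral genes. DC themselves take up antigen when immature and present it to T cells once matured.

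The promoters of 5 genes from the groups that stood lower with AdIkBa-SR+TNFa are shown, because these groups differ in role. All 5 hold motif matches, which most windows of lower genes do not, so they are not typical of the lower genes. They are a chemokine (Cxcl10, chr5:92348840-92349139, minus strand), a cytokine (Il6, chr5:30012864-30013163, plus strand), an NF-kB feedback inhibitor (Tnfaip3, chr10:19015361-19015660, minus strand) and 2 interferon-stimulated genes (Gbp2, chr3:142620413-142620712, plus strand, and Ifit3, chr19:34583279-34583578, plus strand). Each window comes from RefSeq on build GRCm38.p6, is 300 bases long, runs 5′ to 3′ along the gene and covers 250 bases before to 50 after its start. Capitals mark matches on either strand to the kB consensus or to the interferon-stimulated response element (ISRE) motif GAAANNGAAA. The first capital run in Cxcl10, the first in Gbp2 and both in Ifit3 are ISRE matches, and all other runs are kB matches, of which some overlap.
Cxcl10: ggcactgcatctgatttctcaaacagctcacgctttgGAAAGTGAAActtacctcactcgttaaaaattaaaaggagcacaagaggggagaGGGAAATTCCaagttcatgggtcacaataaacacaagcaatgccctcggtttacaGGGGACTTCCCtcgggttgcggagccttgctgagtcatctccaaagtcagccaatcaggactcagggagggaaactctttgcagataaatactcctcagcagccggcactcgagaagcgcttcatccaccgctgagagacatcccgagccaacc
Il6: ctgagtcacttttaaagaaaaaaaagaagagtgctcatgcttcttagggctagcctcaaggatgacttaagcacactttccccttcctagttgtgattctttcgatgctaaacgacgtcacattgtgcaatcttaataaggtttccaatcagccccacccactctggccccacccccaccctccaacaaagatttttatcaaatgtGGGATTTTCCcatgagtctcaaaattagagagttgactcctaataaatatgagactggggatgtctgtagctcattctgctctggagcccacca
Tnfaip3: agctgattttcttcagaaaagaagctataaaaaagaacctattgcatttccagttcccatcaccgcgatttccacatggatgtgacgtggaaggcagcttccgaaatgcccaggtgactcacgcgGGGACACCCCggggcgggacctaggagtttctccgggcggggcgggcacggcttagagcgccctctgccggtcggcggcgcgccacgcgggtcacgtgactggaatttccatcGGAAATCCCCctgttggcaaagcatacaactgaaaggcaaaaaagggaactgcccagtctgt
Gbp2: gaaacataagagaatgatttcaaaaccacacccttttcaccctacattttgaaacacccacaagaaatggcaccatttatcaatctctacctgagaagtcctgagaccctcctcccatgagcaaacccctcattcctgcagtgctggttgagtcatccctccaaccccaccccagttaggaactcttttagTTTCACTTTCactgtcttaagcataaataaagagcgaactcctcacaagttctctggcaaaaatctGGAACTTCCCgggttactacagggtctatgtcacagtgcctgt
Ifit3: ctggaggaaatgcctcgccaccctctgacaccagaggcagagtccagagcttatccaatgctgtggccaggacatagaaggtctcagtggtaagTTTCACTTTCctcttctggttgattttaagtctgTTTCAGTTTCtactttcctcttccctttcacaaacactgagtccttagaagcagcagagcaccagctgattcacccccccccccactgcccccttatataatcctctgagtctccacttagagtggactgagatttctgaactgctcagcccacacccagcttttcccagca

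These matches are letters in a sequence, and no binding was measured. Among genes at least 2-fold lower with AdIkBa-SR+TNFa, 332 had windows in the RefSeq table, and 11.6% of their 431 windows held a kB match. The share was 9.55% of 440 windows of higher genes, 10.5% of 9361 windows of all measured genes and 8.46% of all 32851 windows. The ISRE motif was in 7.89% of the windows of lower genes, 3.64% of those of higher genes, 3.24% of those of all measured genes and 3.44% of all windows. Of 16 windows of the 13 lower interferon-stimulated genes that had any, 10 held the ISRE motif and 3 a kB match.

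The values are MAS5 signals, an intensity per probe set on a linear scale. A floor was put at 53.5, the 40th percentile over the non-control probe sets, and lower signals were raised to it. Probe sets that exceeded the floor on 1 or both of the 2 arrays are called measured. This held for 15018 probe sets. Of these, 737 were at least 2-fold lower with AdIkBa-SR+TNFa than with AdOVA+TNFa (4.91%), and 809 were at least 2-fold higher (5.39%). Read from the brightest probe set of each gene, 401 of 8966 measured genes were lower (4.47%) and 439 were higher (4.9%). These shares are the background for the counts of every gene list below. The median log2 ratio was -0.14 over probe sets, with quartiles at -0.48 and 0.24. Setting the arrays to equal medians raised each ratio above the floor by 0.23 and moved this median to 0.07 and the split to 394 lower and 1299 higher. With the floor at the 25th percentile the split was 1529 lower and 1109 higher, so the balance of directions depends on scaling and on the floor.

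The arrays differed in ways that touch these counts. The median signal was 75.3 on the AdIkBa-SR+TNFa array and 88.5 on the AdOVA+TNFa array, the lowest on the other arrays being 74.4 and the highest 82.6. The 5′ control probe set for 18S ribosomal RNA read 537 on the AdIkBa-SR+TNFa array and 2601 on the AdOVA+TNFa array, and between 120 and 340 on the other arrays. Both arrays of the comparison have the same fluidics round and wash settings in their headers. The AdOVA, TNFa and untreated arrays belong to another round. The share of probe sets called higher was 1.28% in the lowest quartile of mean signal and 10.8% in the highest, while the share called lower ran between 1.94% and 7.30% over the quartiles. Fewer cells of a type and less RNA per cell cannot be told apart in these bulk samples.

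**Figure D1:**
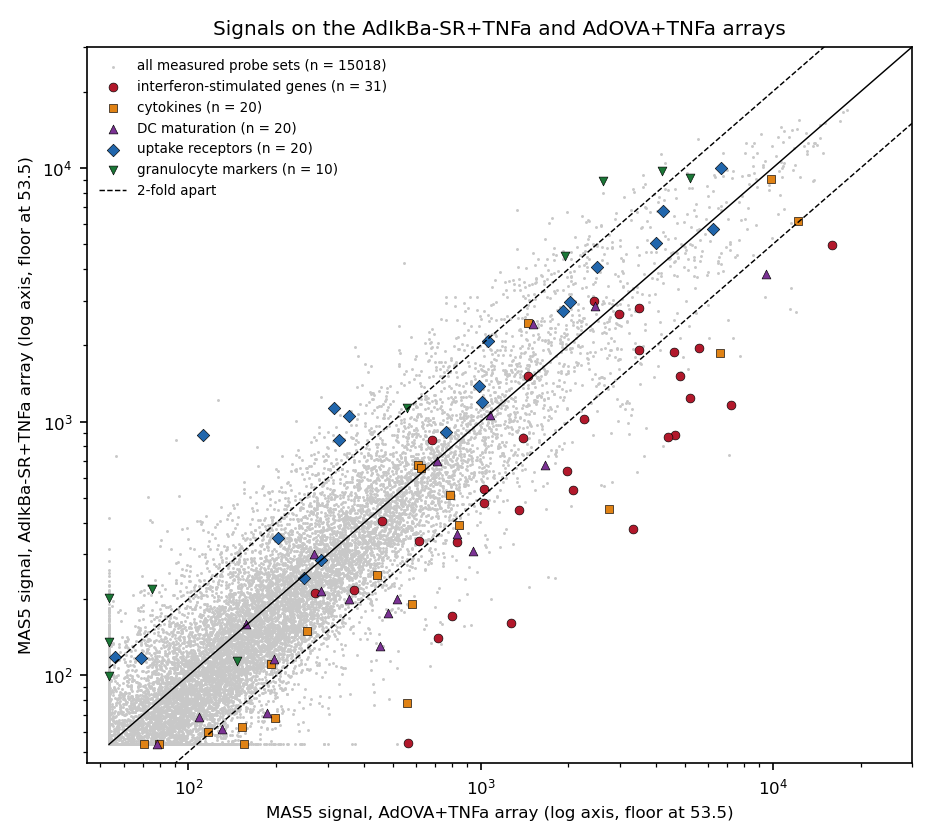
MAS5 signal on the AdIkBa-SR+TNFa array (vertical axis) against the AdOVA+TNFa array (horizontal axis), both on log axes with signals under 53.5 set to 53.5. Grey points are the 15018 measured probe sets, coloured points are genes of 5 lists read from their brightest probe set, the solid line marks equal signals and dashed lines 2-fold. Interferon-stimulated genes, cytokines and DC maturation genes reach far below the lower dashed line, with 19, 8 and 9 members there, and 5 uptake receptors and 7 granulocyte markers lie above the upper one.

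Nfkbia, the gene of IkBa, comes first because the virus carries a form of it. Its 4 probe sets had signals of 8571, 391, 2997 and 2723 on the AdIkBa-SR+TNFa array, against 9729, 515, 5066 and 2836 on the AdOVA+TNFa array. All 4 were lower, with log2 ratios of -0.18, -0.40, -0.76 and -0.06, and none reached 2-fold. With equal medians the log2 ratios were 0.05, -0.16, -0.52 and 0.18, so the direction of the first and the last depends on scaling. It is not known if a probe set among them detects the transgene of the virus, and these values therefore check nothing about delivery.

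The 12 genes furthest lower with AdIkBa-SR+TNFa were Mx2, Cxcl10, Cmpk2, Gbp3, Il12b, Tnfaip3, Gbp2, Il6, Cxcl11, Resf1, Mir155hg and Nos2. Mx2, an interferon-induced antiviral GTPase, read 53.9 with AdIkBa-SR+TNFa and 565 with AdOVA+TNFa (log2 -3.39), and 15.3 and 24.4 on the TNFa and untreated arrays. Cxcl10, an attractant of activated T cells, read 739 and 7073 (log2 -3.26). Cmpk2, an interferon-induced nucleotide kinase of mitochondria, read 377 and 3333 (log2 -3.14). For all of these the AdIkBa-SR+TNFa array was above both arrays without virus and far below the AdOVA+TNFa array. Gbp3 and Gbp2, GTPases of cell-autonomous defence, read 161 and 1166 with AdIkBa-SR+TNFa, against 1272 and 7201 with AdOVA+TNFa (log2 -2.98 and -2.63). Both stood below their TNFa-array signals of 281 and 1447.

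Il12b, the p40 subunit of interleukin 12 and interleukin 23, read 77.9 with AdIkBa-SR+TNFa and 562 with AdOVA+TNFa (log2 -2.85), and its other measured probe set had a log2 ratio of -2.76. Tnfaip3, the gene of A20, a ubiquitin-editing brake on NF-kB, read 224 and 1462 (log2 -2.71). Il6, which drives the acute-phase response, read 452 and 2749 (log2 -2.61). Nos2, the inducible nitric oxide synthase, read 634 and 3444 (log2 -2.44). The AdOVA array without TNFa read 303 for Il12b, 512 for Tnfaip3 and 640 for Nos2, each below the AdOVA+TNFa array, and 3114 for Il6, which was above it. The other genes among the 12 furthest lower were Cxcl11, a further T cell attractant, Resf1, a silencer of retroelements, and Mir155hg, the host transcript of a microRNA of activated immune cells. Mir155hg read 132 with AdIkBa-SR+TNFa and 732 with AdOVA+TNFa (log2 -2.47), beside 196 with TNFa alone and 111 untreated. The call for Cxcl11 rests on its brighter probe set (159 and 928, log2 -2.55), because the dim one read 9.67 and 62.4.

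**Figure D2:**
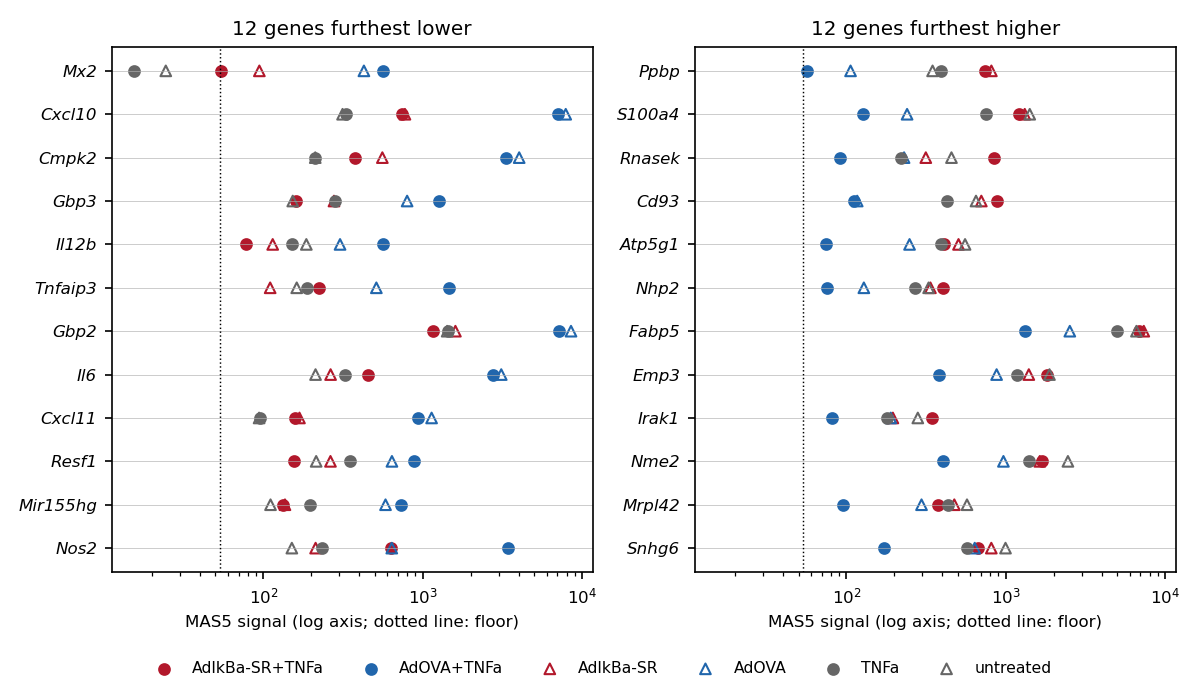
MAS5 signal on a log axis for the 12 genes furthest lower (left) and the 12 furthest higher (right) in AdIkBa-SR+TNFa over AdOVA+TNFa among genes above the floor on both arrays, with all 6 arrays per gene; filled symbols received TNFa, red is AdIkBa-SR, blue AdOVA and grey no virus. In the left panel the AdOVA+TNFa array is far to the right of the AdIkBa-SR+TNFa array, as for Cxcl10 at 739 and 7073. In the right panel it is the leftmost point of every gene shown.

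Where the AdIkBa-SR+TNFa signal was under the floor, the fold is a bound. Plagl1, a zinc-finger transcription factor, was at least 4.07-fold lower, with 218 on the AdOVA+TNFa array, and Oas1e, of the oligoadenylate synthetase family, at least 3.85-fold lower, with 206. Cdc42bpa, a kinase of the cytoskeleton, was at least 5.43-fold lower, and Arsi, an arylsulfatase, at least 4.66-fold. In the pair of arrays without TNFa, Arsi had a log2 ratio of -0.02. Cdc42bpa was under the floor on both arrays of that pair, so nothing was measured for it there. Gm29722 completes this set at 5.44-fold or more. The probe sets of Gm29722 and Plagl1 are of the type that can bind related transcripts.

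Genes of NF-kB itself were lower by less than 2-fold. All 9 measured genes of NF-kB subunits and IkB proteins had log2 ratios below 0 (median -0.68), and 0 of 9 were at least 2-fold lower. Rela, the p65 subunit, read 743 with AdIkBa-SR+TNFa and 1190 with AdOVA+TNFa (log2 -0.68). Relb, the subunit of the non-canonical pathway, read 158 and 266 (log2 -0.75). Bcl3, a nuclear IkB protein that works with p50 and p52 dimers, read 251 and 447 (log2 -0.83), and Nfkbie, the gene of IkBe, read 268 and 473 (log2 -0.82). The smallest difference was that of Nfkbib, the gene of IkBb, at 692 and 754 (log2 -0.12). With equal medians the list median was -0.45 and 7 of the 9 ratios were below 0, so the shared direction depends on scaling. In the pair without TNFa the list median was -0.69, and 3 of the 9 genes were at least 2-fold lower. Set against the AdOVA array in place of the AdOVA+TNFa array, AdIkBa-SR+TNFa had a list median of -0.05. That pair also differs in TNFa and in fluidics round.

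Among the kinases, adaptors and feedback genes of the pathway, 4 of 21 measured genes were at least 2-fold lower and 1 was higher, with a median of -0.48. Beside Tnfaip3 these were Traf1, an adaptor of TNF receptors, Birc3, the ubiquitin ligase cIAP2, and Tnip1, which binds A20. Traf1 read 303 with AdIkBa-SR+TNFa and 746 with AdOVA+TNFa (log2 -1.30), Birc3 read 732 and 1708 (log2 -1.22), and Tnip1 read 1349 and 2731 (log2 -1.02). The other measured probe set of Birc3 had a log2 ratio of 0.07. The IkB kinase genes Ikbkb, Ikbkg and Ikbke had log2 ratios of -0.15, -0.54 and -0.55, and the TNF receptor genes Tnfrsf1a and Tnfrsf1b had -0.22 and -0.28. The gene called higher, the kinase Irak1, read 343 and 80.6 on its brightest probe set (log2 2.09), but its 4 probe sets ran from -1.30 to 2.09.

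Cytokine genes were lower as a group: 8 of 20 measured members were at least 2-fold lower (40%, against 4.47% of all measured genes), 0 were higher, and the median log2 ratio was -0.90. They were Il6, Il12b, Il1a, Tnf, Il15, Il12a, Lif and Ifnb1. Il1a, an interleukin 1 that is released by damaged cells, read 1871 with AdIkBa-SR+TNFa and 6622 with AdOVA+TNFa (log2 -1.82). Tnf itself read 191 and 583 (log2 -1.61), and the TNFa array without virus read 318. Il15, a growth factor of NK and memory T cells, read 67.8 and 197 (log2 -1.54), and Il12a, the p35 subunit of interleukin 12, read 393 and 846 (log2 -1.11). Ifnb1, the gene of interferon beta, was dim on both arrays at 62.5 and 153 (log2 -1.29). Il1b, the secreted interleukin 1 of inflammation, read 6202 and 12233 and was just short of 2-fold (log2 -0.98).

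Not every cytokine followed. Il1rn, the antagonist of interleukin 1, read 9065 with AdIkBa-SR+TNFa and 9851 with AdOVA+TNFa (log2 -0.12), and Csf1, the macrophage growth factor, read 656 and 626 (log2 0.07). Tgfb1, an anti-inflammatory growth factor, read 2458 and 1449 (log2 0.76), and both signals were above the 618 to 932 range of the other arrays. Ltb, Csf2 and Il23a were under the floor on both arrays, so nothing was measured for them.

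Chemokine genes split in both directions, with 3 of 24 at least 2-fold lower, 6 higher and a median of -0.10, which was 0.06 with equal medians. The lower ones were the interferon-inducible ligands Cxcl10 and Cxcl11 and the T cell attractant Ccl22, at 676 with AdIkBa-SR+TNFa and 1391 with AdOVA+TNFa (log2 -1.04). The higher ones were the platelet chemokines Ppbp and Pf4, the monocyte attractants Ccl2, Ccl7 and Ccl12, and Ccl17, which shares its receptor with Ccl22. Ppbp read 735 and 56.4 (log2 3.70), Pf4 read 9168 and 2629 (log2 1.80), and Ccl7 read 2221 and 694 (log2 1.68). Ccl2 read 13014 and 5536 (log2 1.23), and the AdIkBa-SR array without TNFa read 13259. Ccl17 read 1196 and 415 (log2 1.53), so Ccl17 and Ccl22 lay in opposite directions. Ccl12 was at least 2.82-fold higher, since the AdOVA+TNFa array was under the floor. Without TNFa, only Ppbp of these 6 was at least 2-fold higher with AdIkBa-SR than with AdOVA.

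Other inflammatory chemokines were not 2-fold apart. Cxcl1 and Cxcl2, neutrophil attractants, read 1393 and 6263 with AdIkBa-SR+TNFa, against 2638 and 7816 with AdOVA+TNFa (log2 -0.92 and -0.32). Ccl3, Ccl4 and Ccl5, which attract T cells and monocytes, had log2 ratios of -0.04, -0.19 and -0.15 with TNFa, and -0.69, -1.47 and -0.79 in the pair without TNFa.

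Interferon-stimulated genes held the largest share of lower members among the lists of more than 1 measured gene. Of 31 measured, 19 were at least 2-fold lower (61.3%, against 4.47% of all measured genes) and 0 were higher. The median log2 ratio was -1.32. The antiviral genes Ifit2 and Ifit3, which bind foreign RNA or its partners, read 886 and 1245 with AdIkBa-SR+TNFa, against 4647 and 5201 with AdOVA+TNFa (log2 -2.39 and -2.06). Rsad2, the antiviral enzyme viperin, read 4974 and 15999 (log2 -1.69), and Oasl1, of the oligoadenylate synthetase family, read 870 and 4396 (log2 -2.34). Ifih1, the RNA sensor MDA5, read 537 and 2076 (log2 -1.95), and its AdIkBa-SR+TNFa signal was the lowest of the 6 arrays, below 1124 with TNFa and 589 untreated. The signals of the 31 genes summed to 34176 with AdIkBa-SR+TNFa and 87361 with AdOVA+TNFa, and to 24606 with TNFa alone and 26008 in untreated cells.

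The other 12 interferon-stimulated genes did not reach 2-fold. Oas3 and Oas1a, oligoadenylate synthetases, read 1515 and 2809 with AdIkBa-SR+TNFa, against 1454 and 3483 with AdOVA+TNFa (log2 0.06 and -0.31). Bst2, the virus tether tetherin, read 2983 and 2447 (log2 0.29), and Zbp1, a sensor of nucleic acids, read 851 and 681 (log2 0.32). Rtp4 and Ifi35 had log2 ratios of -0.17 and -0.18. Among the interferon signalling genes 4 of 19 were at least 2-fold lower, namely Stat2, Stat3, Jak2 and Irf1, and 0 were higher (median -0.34). Dimmer probe sets of Stat3 had log2 ratios of -0.89 and -0.28, short of 2-fold. Stat2, a subunit of the factor that binds the ISRE, read 484 and 1421 (log2 -1.55), and Irf1, an interferon regulatory factor, read 600 and 1330 (log2 -1.15). Irf7, which amplifies interferon induction, read 5767 and 5589 (log2 0.05), and both were above the highest of the other arrays, 3184.

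**Figure D3:**
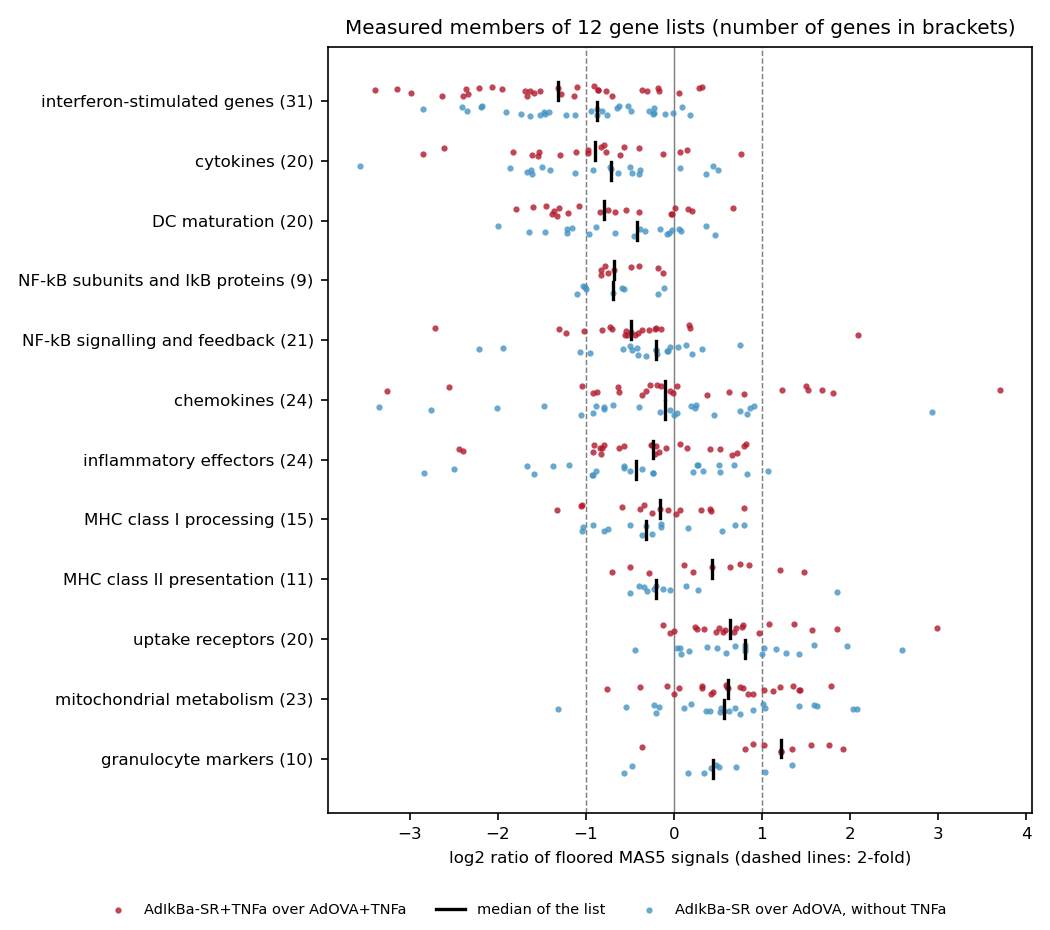
Log2 ratio of floored MAS5 signals for the measured members of gene lists, 1 point per gene, in AdIkBa-SR+TNFa over AdOVA+TNFa (red) and in AdIkBa-SR over AdOVA without TNFa (blue), with the number of genes in brackets, black bars at the medians and dashed lines at 2-fold. The interferon-stimulated genes have the lowest median with TNFa of the lists drawn, -1.32, and the granulocyte markers the highest, 1.22. The medians of the MHC class II list lie on opposite sides of 0, at 0.43 with TNFa and -0.21 without.

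DC maturation genes were lower in part: 9 of 20 measured were at least 2-fold lower (45%, against 4.47% of all measured genes). In the other direction 0 were higher, and the median was -0.79. Ccr7, the receptor that takes mature DC to lymph nodes, read 200 with AdIkBa-SR+TNFa and 516 with AdOVA+TNFa (log2 -1.37). Fscn1, the actin-bundling protein fascin of mature DC, read 310 and 940 (log2 -1.60), although its 3 probe sets ran from -1.60 to -0.28. Slamf1, a costimulatory receptor, read 131 and 454 (log2 -1.80), and Cd40, the receptor for T cell help, read 71.2 and 185 (log2 -1.38). Cd274, the inhibitory ligand PD-L1, read 3808 and 9516 (log2 -1.32), and Icam1, an adhesion molecule, read 673 and 1669 (log2 -1.31). Il15ra, Cd200 and Il2ra complete the 9, with log2 ratios of -1.45, -1.20 and -1.08.

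The B7 costimulatory genes were not among them. Cd86 read 699 with AdIkBa-SR+TNFa and 711 with AdOVA+TNFa (log2 -0.02), Cd80 read 216 and 284 (log2 -0.40), and Cd83, a marker of mature DC, read 302 and 270 (log2 0.16). Cd86 was highest in neither of these arrays, since the AdIkBa-SR and AdOVA arrays without TNFa read 1140 and 1155.

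The list of inflammatory effectors had a median of -0.23, which was 0.00 with equal medians. Of its 24 measured genes, 2 were at least 2-fold lower (8.33%, against 4.47% of all measured genes) and 0 higher. They were Nos2 and Ptgs2, the inducible cyclooxygenase, at 800 with AdIkBa-SR+TNFa and 4210 with AdOVA+TNFa (log2 -2.40). Acod1, which makes itaconate, and Sod2, the mitochondrial superoxide dismutase, had log2 ratios of -0.92 and -0.56. Saa3, Lcn2, Cd14 and Arg1 had log2 ratios between -0.20 and 0.14. The MHC class I list had 3 of 15 genes at least 2-fold lower, Tap1, Tap2 and Tapbpl of peptide loading (log2 -1.04, -1.06 and -1.33), and a median of -0.15. With equal medians 1 was lower and the median was 0.08. The immunoproteasome genes Psmb8 and Psmb9 had log2 ratios of -0.07 and -0.15, and B2m, the light chain of class I, 0.03. Of 11 MHC class II genes 0 were lower and 2 were higher. These were the asparagine endopeptidase Lgmn, at 1621 and 584 (log2 1.47), and H2-DMa, which edits class II peptides, at 215 and 93.4 (log2 1.20).

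Glycolysis genes had log2 ratios below 0 in all 14 measured members (median -0.31), and 3 were at least 2-fold lower. The glucose transporter Slc2a1 read 2147 with AdIkBa-SR+TNFa and 6033 with AdOVA+TNFa (log2 -1.49). Hk2, which phosphorylates glucose, read 1017 and 2332 (log2 -1.20), and Pfkfb3, which makes an activator of phosphofructokinase, read 381 and 804 (log2 -1.08). Later enzymes of the pathway such as Aldoa, Pkm and Ldha had log2 ratios of -0.06, -0.15 and -0.25. With equal medians the list median was -0.08 and 9 of the 14 ratios were below 0 and 1 gene was at least 2-fold lower, so the shared direction depends on scaling. In the stress list 2 of 22 genes were at least 2-fold lower (9.09%, against 4.47% of all measured genes), and the median was -0.58. Both were heat-shock genes of the inducible Hsp70 type. Hspa1b and Hspa1a read 97.0 and 114 with AdIkBa-SR+TNFa, against 465 and 421 with AdOVA+TNFa (log2 -2.26 and -1.88), but these are near-identical copies whose probe sets may not separate them.

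Survival genes had 1 of 16 members lower and 1 higher (6.25% each, near the 4.47% and 4.9% of all measured genes). The list median was -0.47. Fas, a death receptor, read 61.5 with AdIkBa-SR+TNFa and 193 with AdOVA+TNFa (log2 -1.65), and Bak1, a pore-forming death protein, read 498 and 190 (log2 1.39). The NF-kB targets Bcl2l1 and Cflar, which restrain cell death, had log2 ratios of 0.66 and -0.97. Immediate-early genes had 1 of 20 lower (Junb, 490 and 1073, log2 -1.13) and 1 higher (Myc, at least 2.09-fold). At 5% each, these counts are also near the shares over all measured genes. Cholesterol synthesis genes had 0 of 13 in either direction. Proliferation genes had 2 of 19 lower (10.5%), Ccnd2 and Ccne1, and 3 higher (15.8%), Top2a, Ccna2 and Cks1b.

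Genes higher with AdIkBa-SR+TNFa included receptors of immature myeloid cells. Of 20 measured uptake receptors, 5 were at least 2-fold higher (25%, against 4.9% of all measured genes), 0 were lower, and the median log2 ratio was 0.63. Cd93, a receptor of myeloid cells, read 884 with AdIkBa-SR+TNFa and 112 with AdOVA+TNFa (log2 2.98), although its dimmer probe set had 0.86. Cd36, a scavenger receptor, read 1136 and 314 (log2 1.85), and C5ar1, the receptor for complement C5a, read 1052 and 353 (log2 1.57). Itgax, the CD11c integrin of DC, read 847 and 329 (log2 1.36), and the lectin Clec10a read 118 and 56.1 (log2 1.08). For Cd93, Cd36 and Itgax the TNFa and untreated arrays lay between the AdIkBa-SR+TNFa and AdOVA+TNFa arrays, at 427 and 650, 969 and 711, and 755 and 699. Fc receptor genes differed less, with log2 ratios of 0.24 for Fcgr1, -0.12 for Fcgr2b and 0.34 for Fcgr3.

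Other genes far higher with AdIkBa-SR+TNFa belong to several functions. S100a4, which binds calcium and acts in cell migration, read 1219 with AdIkBa-SR+TNFa and 127 with AdOVA+TNFa (log2 3.27). Fabp5, a fatty-acid carrier, read 6838 and 1329 (log2 2.36), and its other probe set had 2.95. Fn1, the matrix protein fibronectin, read 1658 and 525 (log2 1.66), and Cd200r1, an inhibitory receptor of myeloid cells, read 904 and 280 (log2 1.69). Eps8, an actin regulator, read 393 and 111 (log2 1.83), but its 3 probe sets ran from 0.36 to 1.83. The mean over probe sets of Fn1 was 0.97. The AdOVA+TNFa signal was the lowest of the 6 arrays for S100a4, Fabp5, Cd200r1 and Eps8, and for Fn1 the AdOVA array was lower still, at 361.

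Markers of granulocytes moved with this higher group. Of 10 measured granulocyte markers, 7 were at least 2-fold higher with AdIkBa-SR+TNFa (70%, against 4.9% of all measured genes) and 0 were lower. The median was 1.22, and 1 ratio was below 0. In the pair without TNFa, 2 of the 10 were at least 2-fold higher, with a median of 0.45. S100a8 and S100a9, calcium-binding proteins abundant in neutrophils, read 9756 and 8866 with AdIkBa-SR+TNFa, against 4190 and 2618 with AdOVA+TNFa (log2 1.22 and 1.76). Camp, an antimicrobial peptide of granules, was at least 3.77-fold higher, and the defining granule genes Elane and Ctsg were also under the floor on the AdOVA+TNFa array. The signals of the 10 genes summed to 34182 with AdIkBa-SR+TNFa and 14853 with AdOVA+TNFa, and in the pair without TNFa to 33369 with AdIkBa-SR and 23691 with AdOVA. The sums were 22303 with TNFa and 28823 in untreated cells. No marker read 0, and the part of these cells in the higher genes was not tested.

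In the mitochondrial metabolism list, 7 of 23 genes were at least 2-fold higher (30.4%, against 4.9% of all measured genes) and 0 lower (median 0.61). Slc25a5, the adenine nucleotide carrier of the inner membrane, read 2536 with AdIkBa-SR+TNFa and 735 with AdOVA+TNFa (log2 1.79). Gcsh, of the glycine cleavage system, read 362 and 135 (log2 1.42). The list also counts Idh1, an NADP-dependent isocitrate dehydrogenase that is not the mitochondrial form, at 596 and 294 (log2 1.02). The pair without TNFa had 7 of these 23 genes at least 2-fold higher too, with a median of 0.57, and Slc25a5 and Gcsh had log2 ratios of 1.62 and 2.03 there.

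Families of subunits, added after these data had been seen, were higher with TNFa and nearly level without it. Of 43 measured cytosolic ribosomal protein genes, 27 were at least 2-fold higher with AdIkBa-SR+TNFa (62.8%, against 4.9% of all measured genes). In this family 0 were lower, and the median was 1.09, against 0.13 in the pair without TNFa. Of 70 genes of the respiratory chain and ATP synthase, 37 were higher (52.9%) and 0 lower (median 1.07, against 0.23 without TNFa). Of 73 mitochondrial ribosomal protein genes, 16 were higher (21.9%) and 0 lower (median 0.62, against 0.22). Uqcrb, a subunit of complex III, read 5262 with AdIkBa-SR+TNFa and 1668 with AdOVA+TNFa (log2 1.66), and 4683 and 4698 with AdIkBa-SR and AdOVA without TNFa. Rpl35, of the large ribosomal subunit, read 3101 and 816, and 2768 and 2591 without TNFa, although its 6 probe sets ran from -0.64 to 1.93. Rnasek, whose protein associates with the vacuolar proton pump, was alike, at 849 and 90.9 with TNFa (log2 3.22) and 315 and 230 without (log2 0.45).

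For these families it was the AdOVA+TNFa array that stood apart. The median signal of the 43 cytosolic ribosomal genes was 3216 on the AdIkBa-SR+TNFa array and 1344 on the AdOVA+TNFa array, 3421 and 2613 on the AdIkBa-SR and AdOVA arrays, 2475 with TNFa and 3950 in untreated cells. For the respiratory genes the medians were 791 and 398, 795 and 609, 642 and 888 in the same order. Set against the AdOVA array without TNFa in place of the AdOVA+TNFa array, 0 of 43 cytosolic ribosomal genes, 5 of 70 respiratory genes and 4 of 73 mitochondrial ribosomal genes were at least 2-fold higher. This is also the array with the high 18S ribosomal RNA signal given above, and the part of that signal in the ribosomal and respiratory values was not tested. Against the same AdOVA array the interferon-stimulated genes had 19 of 31 lower, the cytokines 9 of 20 and the DC maturation genes 7 of 20, and 9 of 20 uptake receptors, 3 of 10 granulocyte markers and 3 of 23 mitochondrial metabolism genes were higher. That pair differs in TNFa and in fluidics round as well as in virus.

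**Figure D4:**
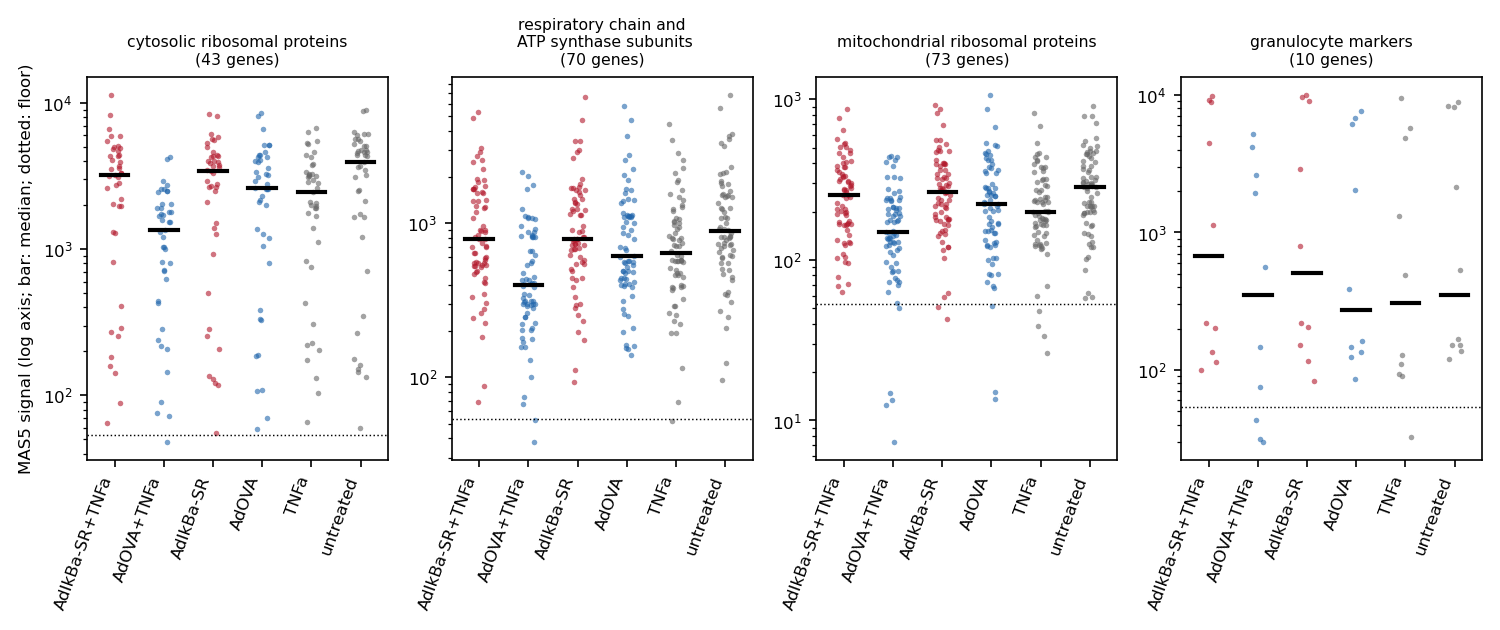
MAS5 signal on log axes for the measured genes of 3 families and of the granulocyte marker list, 1 point per gene and array, with black bars at the medians and a dotted line at the floor. The AdOVA+TNFa array has the lowest median for all 3 families, such as 1344 for cytosolic ribosomal proteins beside 3216 on the AdIkBa-SR+TNFa array. For granulocyte markers the AdIkBa-SR+TNFa array has the highest median, 677.

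The genes with the furthest higher bounds were Uqcr11, a further complex III subunit, and Sf3b5, a splicing factor, at 418 and 315 with AdIkBa-SR+TNFa and under the floor with AdOVA+TNFa. Uqcr11 was at least 7.81-fold higher and Sf3b5 at least 5.89-fold. Cks1b, a subunit of cell-cycle kinases, was at least 4.59-fold higher, and without TNFa its signals were 198 with AdIkBa-SR and 49.7 with AdOVA. The other measured probe set of Cks1b had a log2 ratio of 0.92 with TNFa, short of 2-fold. Gng2, a G protein subunit, and Zdhhc6, a palmitoyltransferase, were at least 5.30-fold and 4.87-fold higher, but the other probe set of Zdhhc6 had a log2 ratio of 0.09. Atp5g1, Nhp2, Emp3, Nme2, Mrpl42 and Snhg6 complete the 12 genes furthest higher, with log2 ratios from 1.95 to 2.47. Of reference genes, 3 of 9 were at least 2-fold higher, Hprt, Gusb and Rplp0, while Actb, Pgk1 and Sdha had log2 ratios of 0.28, -0.22 and 0.00.

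Markers of T cells, B cells, NK cells and fibroblasts were mostly dim, while the macrophage and granulocyte lists held bright members. Of 10 DC defining markers 9 were measured, with median signals of 629 with AdIkBa-SR+TNFa and 329 with AdOVA+TNFa. The growth factor receptor genes Csf2ra and Csf2rb and the class II chain gene Cd74 were well above the floor on both arrays of the comparison. They read 1874, 5237 and 3139 with AdIkBa-SR+TNFa, and 1735, 4379 and 2331 with AdOVA+TNFa. These are among the brighter members and do not stand for the whole list. Flt3, the receptor of DC progenitors, was under the floor on both arrays. Of the T cell markers 1 of 7 was measured, of B cell markers 2 of 5, of NK cell markers 3 of 5 and of fibroblast markers 2 of 5, and 0 of these were 2-fold apart. Of the plasmacytoid DC markers only Tcf4 was measured, at 156 with AdIkBa-SR+TNFa and 323 with AdOVA+TNFa. The 6 measured macrophage markers had a median signal of 1995 with AdIkBa-SR+TNFa and 1036 with AdOVA+TNFa. Among them Adgre1 and Csf1r had log2 ratios of -0.29 and -0.08, while Cd68 and C1qb were at least 2-fold higher. Of 6 mast cell and basophil markers, Mcpt8 was higher, at 670 and 312 (log2 1.10), and Cpa3 had 0.97.

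The pair of arrays without TNFa shares no array with this comparison and gives the virus contrast again. In it 662 of 15007 measured probe sets were at least 2-fold lower with AdIkBa-SR than with AdOVA (4.41%) and 570 were higher (3.8%). Washing of the AdIkBa-SR array followed a different protocol, with 0 and 0 cycles and a first stain of 420 s, where the AdOVA array had 10 and 4 cycles and 600 s, and the fluidics rounds of that pair differ. Virus, wash and round cannot be told apart in it. The 737 probe sets lower with TNFa had a median log2 ratio of -0.69 there, and 616 of them (83.6%) had the same sign. The 809 higher ones had a median of 0.52, and 704 of them (87.0%) had the same sign. Lower in both pairs were 245 probe sets, which is 33.2% of the list with TNFa and 37.0% of the list without, and 168 were higher in both, which is 20.8% and 29.5%. Over the 13989 probe sets measured in both pairs, the log2 ratios had Pearson's r = 0.54 and Spearman's rho = 0.50, as a description across probe sets, which are not independent.

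**Figure D5:**
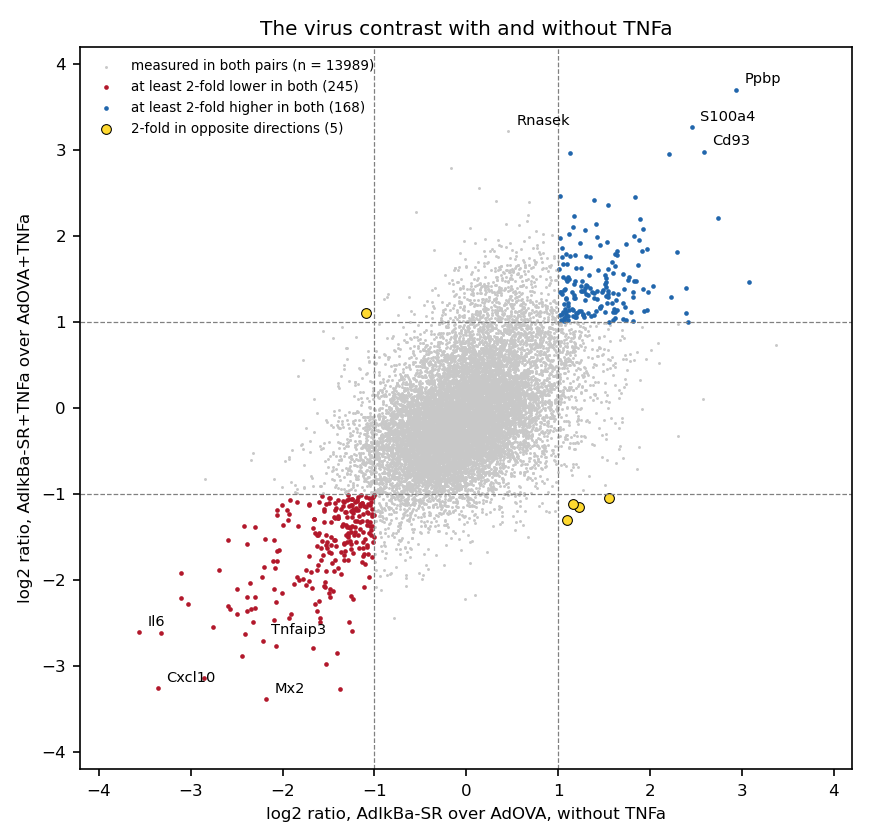
Log2 ratio of AdIkBa-SR+TNFa over AdOVA+TNFa (vertical) against that of AdIkBa-SR over AdOVA without TNFa (horizontal) for 13989 probe sets, with dashed lines at 2-fold. Red marks the 245 probe sets lower in both pairs, blue the 168 higher in both and yellow the 5 that are 2-fold apart in opposite directions. Cxcl10 and Il6 lie at the lower left and Ppbp at the upper right, while Rnasek is high on the vertical axis alone.

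The genes furthest apart in both pairs were led by chemokines, interferon-stimulated genes and inflammatory enzymes on the lower side. Cxcl10 had log2 ratios of -3.26 with TNFa and -3.35 without, Cmpk2 -3.14 and -2.85, Il6 -2.61 and -3.56, and Cxcl11 -2.55 and -2.76. Gbp2, Ptgs2, Oasl1, Tnfaip3 and Mx2 followed. Gja1, the gap-junction protein connexin 43, completes the set at -2.11 and -2.50, and its 6 measured probe sets all had negative ratios with TNFa. On the higher side were Ppbp (3.70 and 2.94), Cd93 (2.98 and 2.59) and S100a4 (3.27 and 2.45), then Cd36, Eps8, Fn1, Slc25a5, Cd200r1, C5ar1 and the mitochondrial ribosomal gene Mrpl12. Counted with floored signals, both AdOVA arrays were above both AdIkBa-SR arrays for 598 of the 737 lower probe sets, and for 4518 of all 15018. For the 809 higher ones both AdOVA arrays were below both AdIkBa-SR arrays in 649, and in 2685 of all. The choice of the lists favours this order.

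Il12b, Nos2 and Tnfaip3 differed in size between the pairs, with the larger difference under TNFa. Nos2 read 634 with AdIkBa-SR+TNFa and 3444 with AdOVA+TNFa, and 213 and 640 in the pair without TNFa. Il12b had log2 ratios of -2.85 with TNFa and -1.40 without, and Tnfaip3 had -2.71 and -2.21. The other probe set of Il12b lay closer between the pairs, at -2.76 and -2.07. The latter is a bound, since the AdIkBa-SR signal was under the floor. Junb, Ccl4 and Hdc, the enzyme that makes histamine, lay the other way, with -1.13, -0.19 and -0.83 with TNFa and -2.01, -1.47 and -2.84 without. None of these differences between pairs was tested.

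Genes that the control virus had raised were often lower with the super-repressor. Members were taken from AdOVA over untreated cells, which shares no array with the comparison. Of 650 measured probe sets at least 2-fold higher in AdOVA than in untreated cells, 254 were at least 2-fold lower with AdIkBa-SR+TNFa than with AdOVA+TNFa (39.1%, against 4.91% of all) and 5 were higher, with a median log2 ratio of -0.80. They made up 34.5% of the 737 lower probe sets. Of 652 probe sets that were lower in AdOVA than in untreated cells, 178 were higher in the comparison (27.3%, against 5.39% of all) and 7 lower, with a median of 0.63.

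At the level of genes, 43 measured genes were at least 4-fold higher in AdOVA than in untreated cells. In the comparison 34 of them were at least 2-fold lower (79.1%, against 4.47% of all measured genes), 0 were higher and 9 were neither. The median of the 43 was -1.82. The 9 were chosen for mention by this class, after their values were seen: Slamf7, Cxcl1, Nr5a1, Hdc, Isg20, Gm9706, Fam162a, Il1f6 and Ccl4. Ccl4 read 1694 with AdIkBa-SR+TNFa and 1935 with AdOVA+TNFa, beside 594 with TNFa and 525 untreated. Its AdIkBa-SR+TNFa signal was thus above both arrays without virus. Fam162a, a mitochondrial protein of the hypoxia response, read 2309 and 3656, beside 1379 with TNFa and 1819 untreated.

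Probe sets that TNFa had raised without virus were fewer. There were 106 measured probe sets at least 2-fold higher in TNFa than in untreated cells. Of these, 20 were lower with AdIkBa-SR+TNFa than with AdOVA+TNFa (18.9%, against 4.91% of all) and 3 higher, with a median of -0.43. Of 152 that TNFa had lowered, 45 were higher (29.6%, against 5.39% of all) and 6 lower, with a median of 0.48. Ptgs2, which read 803 with TNFa and 239 untreated, stood at 800 with AdIkBa-SR+TNFa and 4210 with AdOVA+TNFa.

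Several probe sets of a gene give a check within the arrays. Among 145 lower genes with more than 1 measured probe set, 135 had all probe sets below 0 (93.1%). Among 165 higher genes, 132 had all above 0 (80%), and over all 3106 genes with several measured probe sets 1999 had 1 sign (64.4%). The lower and higher genes were called from their brightest probe set, which is counted here too. The choice of genes therefore favours 1 sign, and the share over all genes is not a like measure. The median SD of the log2 ratio over probe sets of a gene was 0.27. Probe sets of a gene share both arrays, so they say nothing of the spread between cultures.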

How the data were processed

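Affymetrix MOE430A arrays, 6 in all, measured RNA of 6 groups of mouse dendritic cells, 1 array per group, and groups were taken from the sample titles. The deposited values are an intensity per probe set on a linear scale, which the authors computed with MAS5, as the submitters' processing notes name it, with the version not given in the sources used here. They were used without rescaling. The fluidics round and wash settings were read per the file headers.

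Of 22690 probe sets, 64 controls were left out. Signals under 53.5 were raised to this floor and the log2 ratio of AdIkBa-SR+TNFa over AdOVA+TNFa was taken. The floor compresses the ratios of dim genes, and a fold with 1 array under it is a bound. A call is a ratio of at least 2-fold, and no test was made with 1 array a group. The platform annotation gives 1 symbol to 20380 probe sets, several to 691 and none to 1555. Symbols were updated through RefSeq, and the brightest probe set with 1 symbol stood for each gene.

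Genes were named as the 12 furthest apart per direction above the floor on both arrays, up to 5 per direction with the furthest bounds, the 10 per direction furthest apart in both pairs, Nfkbia, and members of gene lists. The comparison and the lists were chosen with earlier results of these data known, and 3 families of subunits were added after seeing the data. Alternatives were other floors, scalings, probe-set rules and an added choice of control array. Scripts ran in Python 3.11.15 with numpy 2.4.6, pandas 2.3.3 and matplotlib 3.10.9 and were tested on simulated data.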

Additional observations from a re-analysis of the deposited data

Results flagged for a closer look

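The 5′ control probe set for 18S ribosomal RNA, which is outside the main measurement, read 2601 on the AdOVA+TNFa array, above all 5 other arrays. Its part in the other values of that array was not tested.

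In 5 probe sets the AdIkBa-SR and AdOVA arrays were at least 2-fold apart in opposite directions with and without TNFa, and the difference was not tested. Omp, the olfactory marker protein, had log2 ratios of 1.11 with TNFa and -1.09 without. Mga, a MAX-binding transcription factor, read 95.1 with AdIkBa-SR+TNFa and 211 with AdOVA+TNFa (log2 -1.15), and 164 and 69.7 in the pair without TNFa. Tmx2, a thioredoxin-related membrane protein, read 229 and 497 with TNFa (log2 -1.12), and 347 and 155 without. Tubb4b, a beta-tubulin, read 103 and 214 with TNFa (log2 -1.05). A dim probe set of Irak1 had log2 ratios of -1.30 with TNFa and 1.10 without, opposite in sign to the brightest probe set of that gene with TNFa.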

How the results depend on the processing

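Equal medians turned the median over all probe sets to 0.07, the Nfkbia ratio to 0.05, and the list medians of chemokines to 0.06, MHC class I to 0.08 and inflammatory effectors to 0.00. The cause of each move below was not tested, except where the alternative's own construction is given. With the floor at the 25th percentile, 1529 probe sets were lower and 1109 higher, which turned the balance, 433 lower in both pairs, 426 virus-raised ones lower and 286 virus-lowered ones higher. With the floor at the 60th percentile, 381 were lower, 156 lower and 88 higher in both pairs, and 96 virus-lowered ones higher. With equal medians, 394 were lower and 1299 higher, 159 lower and 331 higher in both pairs, 320 virus-lowered ones higher, and 8 uptake receptors and 29 mitochondrial ribosomal genes were higher. Quantile normalization left 17 cytosolic ribosomal genes higher. Counted as genes, 401 were lower and 439 higher, since fewer features were counted. Against the AdOVA array, an alternative chosen after seeing the data, 9 uptake receptors, 3 mitochondrial metabolism genes, 3 granulocyte markers, 0 cytosolic ribosomal, 5 respiratory and 4 mitochondrial ribosomal genes were higher. Under quantile normalization 44 of the 44 named genes other than Nfkbia kept both their direction and a difference of 2-fold or more, and equal medians shift a ratio by only 0.23. Read as a mean over probe sets, 34 of 45 stayed within the median SD over probe sets, 0.27, and 11 moved, among them Irak1 at 0.31 and Cxcl11 at -1.38. Many of those that stayed, such as Mx2, Il6 and Ppbp, have 1 measured probe set. Their mean equals the main value, so they could not move and say nothing of agreement. No paired analysis was possible because each group has 1 array and the labels give no replicate numbers. Signals near the floor limit what can be said of dim genes.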
